A study of Mus musculus with 12 samples.

Results

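Pdgfra, Tcf21, Dcn, Lum, Ogn, Dpt and Postn are genes by which fibroblasts are commonly recognised, and they are described here in endothelial cells sorted from embryonic mouse hearts. The 7 genes were taken by name from the table of estimated read counts, in which each was found as 1 Ensembl gene among 41214. The series asks how endocardial endothelium, which lines the heart chambers, differs from the coronary endothelium of the ventricular wall at a later and an earlier stage. The 4 groups were E17 coronary (2 libraries), E17 endocardial (2 libraries), E13 coronary (4 libraries) and E13 endocardial (4 libraries). Every embryo was hemizygous for Nes-gfp, which puts green fluorescent protein (GFP) under control elements of the nestin gene. The embryos labelled E17 were collected at E17.5, also carried Nes-CreER and an R26 tomato reporter, and had received 0.1 ug of tamoxifen at E15.5, and those labelled E13 were collected at E13.5. Ventricles freed of atria and aortic region were digested, and live cells without Ter119 or CD45 and with CD31 were sorted by flow cytometry. At E13 the coronary gate took GFP-positive cells and the endocardial gate took endomucin-high cells with little GFP. At E17 the endocardial gate is given only as GFP-positive, while an arterial and capillary gate and a venous gate, both low in endomucin, are given for coronary cells, and the labels do not say which gave the 2 coronary libraries. The labels name no fibroblast marker by which cells were removed.

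Cardiac fibroblasts arise mostly from the epicardium, the outer layer of the heart, with a part from endocardium by way of the valve cushions. The receptor tyrosine kinase that Pdgfra encodes answers to platelet-derived growth factors, and in the mouse both it and the basic helix-loop-helix factor Tcf21 are needed for cardiac fibroblasts to form. The matrix genes stand further along. Decorin, lumican and osteoglycin (Dcn, Lum, Ogn) are small leucine-rich proteoglycans that bind collagen fibrils, dermatopontin (Dpt) is a small matrix protein that binds decorin, and periostin (Postn) is an integrin-binding matrix protein of valves and fibroblasts.

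The summed expected counts of a library were 14973633 to 17746457 in E17 coronary, 16371834 to 19168912 in E17 endocardial, 17677860 to 21560343 in E13 coronary and 17395783 to 27360653 in E13 endocardial libraries. Levels are given as CPM on library sizes scaled by the TMM method. Endothelial genes were read in every library, which the sort on CD31 favoured and which does not show that other cells were absent. The summed level of 12 endothelial genes, Pecam1 and Cdh5 among them, ran from 13220 to 15130 CPM in E17 coronary, 12070 to 12920 CPM in E17 endocardial, 6900 to 9291 CPM in E13 coronary and 10580 to 11710 CPM in E13 endocardial libraries, with none of the 12 at 0. Whether replicates are of different litters is not in the labels, and a p-value here reflects library-to-library spread, which may be technical. In bulk libraries, fewer cells of a type and less RNA per cell cannot be told apart. Nor can stage be told apart from genotype, tamoxifen, batch and gate, which all differ between the E17 and E13 libraries.

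On build GRCm38, in the GENCODE annotation, Pdgfra (ENSMUSG00000029231) lies at chr5:75152292-75198215, Tcf21 (ENSMUSG00000045680) at chr10:22817281-22820174 on the minus strand, and Ogn (ENSMUSG00000021390) at chr13:49608046-49624501. Dcn (ENSMUSG00000019929) lies at chr10:97479609-97518143 and Lum (ENSMUSG00000036446) beside it at chr10:97565128-97572703, and Dpt (ENSMUSG00000026574) is at chr1:164796644-164824266 and Postn (ENSMUSG00000027750) at chr3:54361109-54391037. All are protein-coding, and all but Tcf21 are on the plus strand. Antisense transcripts annotated over Pdgfra, with no row of their own in the table, cover 456 and 166 bases of its exons, and reads from them could not be separated from Pdgfra reads, since the libraries do not mark strand.

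Tcf21 protein binds DNA at E-boxes, the bases CANNTG, and CAGCTG is a form of them that many factors of its class bind. The 250 bases before the RefSeq start (table build GRCm38.p6) were found for 5 of the 7 genes, and not for Dcn and Lum. Those of Dpt, Ogn and Pdgfra are shown because they are the ones that hold a CANNTG. Sequences run 5′ to 3′ on the plus strand, with every CANNTG in capitals.
Dpt, chr1:164796413-164796662: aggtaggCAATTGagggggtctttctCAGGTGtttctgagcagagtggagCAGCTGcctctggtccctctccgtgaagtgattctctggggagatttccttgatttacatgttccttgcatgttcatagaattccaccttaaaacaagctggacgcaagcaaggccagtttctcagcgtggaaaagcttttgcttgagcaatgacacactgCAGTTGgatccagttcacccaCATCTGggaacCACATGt
Ogn, chr13:49607765-49608014: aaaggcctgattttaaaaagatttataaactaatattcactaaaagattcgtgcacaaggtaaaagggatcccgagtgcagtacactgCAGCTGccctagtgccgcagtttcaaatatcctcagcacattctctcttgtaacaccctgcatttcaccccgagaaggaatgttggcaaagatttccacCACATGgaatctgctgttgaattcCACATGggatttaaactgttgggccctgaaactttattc
Pdgfra, chr5:75152001-75152250: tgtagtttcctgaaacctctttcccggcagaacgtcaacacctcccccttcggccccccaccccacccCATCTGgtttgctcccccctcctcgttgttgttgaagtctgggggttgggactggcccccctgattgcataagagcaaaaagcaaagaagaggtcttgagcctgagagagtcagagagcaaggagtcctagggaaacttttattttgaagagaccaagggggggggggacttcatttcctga
The Dpt window holds 6 CANNTG and the Ogn window 3, and each holds 1 CAGCTG, while the Pdgfra window holds 1 CANNTG and no CAGCTG. Neither motif is in the Tcf21 window or in the 2 Postn windows. Both motifs read the same on either strand, and of 32851 RefSeq windows of this length 66.2% hold CANNTG and 13% hold CAGCTG, so a match describes the letters and nothing more.

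**Figure D1:**
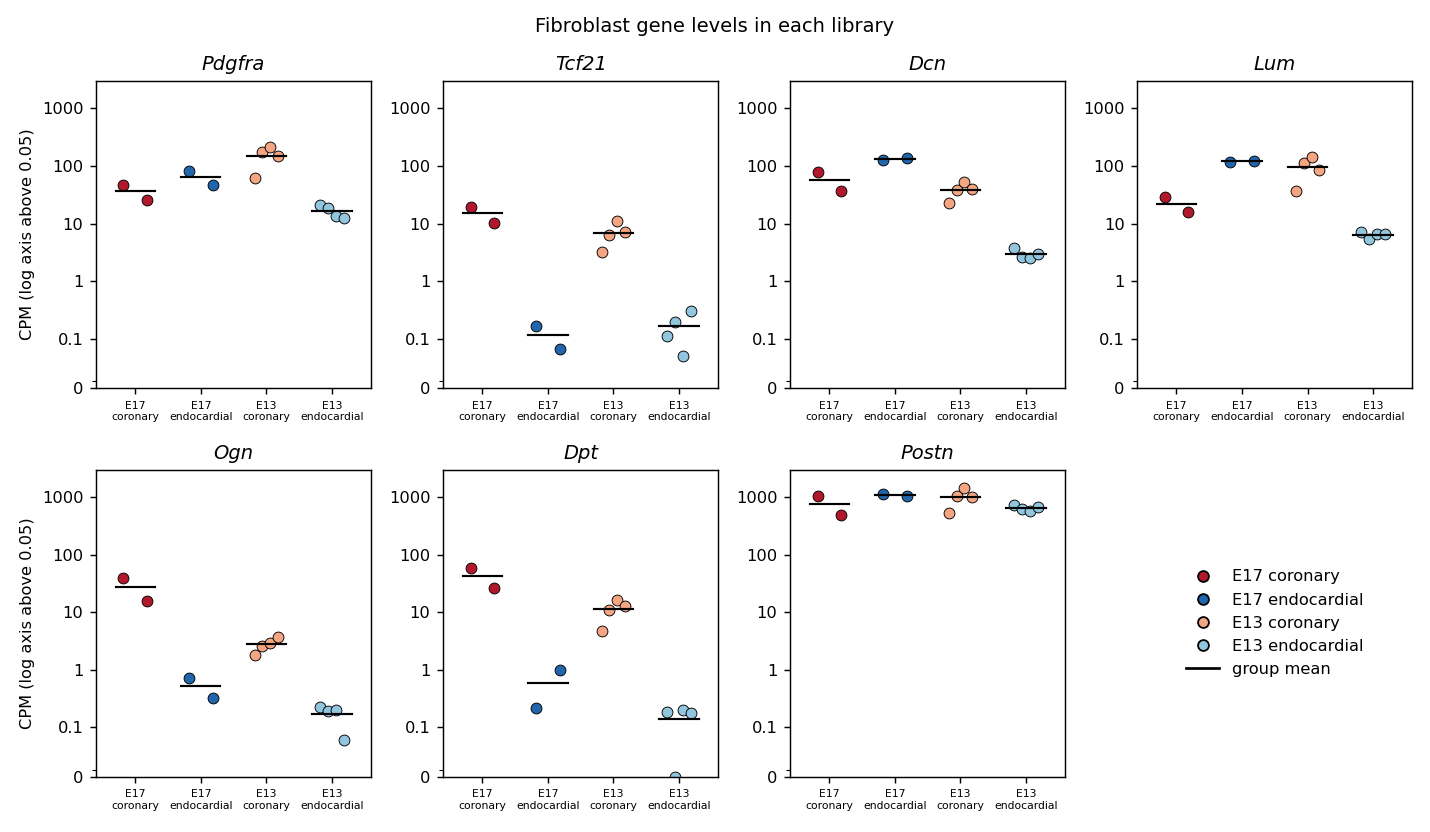
Level of each of the 7 genes in every library, as CPM on an axis that is logarithmic above 0.05 (vertical) by group (horizontal), with 1 point per library and a line at the group mean. Tcf21, Ogn and Dpt lie below 1 CPM in all endocardial libraries, Dcn and Lum lie above 100 CPM in E17 endocardial libraries.

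Of the 7 genes, 3 were higher (Tcf21, Ogn, Dpt) and 2 lower (Dcn, Lum) in coronary than in endocardial libraries at E17, where 26.5% of 15171 tested genes were called higher and 26.1% lower, 52.6% in all, by the quasi-likelihood test of edgeR (Benjamini-Hochberg adjusted p under 0.05). At E13, 6 of the 7 were higher and none was lower, where the test called 30.1% of tested genes higher and 29.9% lower, 60.0% in all. The libraries of the 2 populations did not overlap for the same 5 genes at E17, where 37.3% of tested genes were higher and 38.7% lower without overlap, and for the same 6 at E13, where 27.6% were higher and 27.9% lower without overlap. The median log2 fold change was -0.51 over the 7 genes and -0.01 over all tested genes at E17, and 3.88 and -0.02 at E13. All 7 passed the filter on low counts, but Tcf21, Ogn and Dpt did so only through the coronary libraries. Of all tested genes ranked from the highest coronary excess down, Dpt was 55th and Tcf21 109th at E13, and Tcf21 was 46th, Dpt 80th and Ogn 106th at E17.

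In coronary libraries 3 of the 7 (Tcf21, Ogn, Dpt) were higher and 2 (Pdgfra, Lum) lower at E17 than at E13, and in endocardial libraries 3 (Pdgfra, Lum, Dcn) were higher and none lower. The same test called 24.6% of genes higher and 25.6% lower with stage in coronary libraries, 50.1% in all, and 16.2% higher and 15.6% lower in endocardial libraries, 31.8% in all. The median E17 minus E13 log2 fold change was 0.58 over the 7 genes and -0.02 over all tested genes in coronary libraries, and 1.95 and 0 in endocardial libraries. The E13 libraries of one population stood without overlap from its E17 libraries for Pdgfra, Lum, Ogn and Dpt in coronary cells, and for these and Dcn and Postn in endocardial cells. Groups without overlap were 29.7% of tested genes higher and 30.8% lower at E17 in coronary cells, and 26.7% higher and 25.9% lower in endocardial cells.

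The receptor gene Pdgfra was highest in the E13 coronary group and lowest in the E13 endocardial group. It stood at 47.3 and 25.2 CPM in E17 coronary libraries, against 82.9 and 46.7 CPM in E17 endocardial libraries. At E13 it stood at 60.9, 176.7, 214.7 and 146.9 CPM in coronary replicates 1 to 4, against 20.8, 18.7, 13.3 and 12.6 CPM in endocardial replicates 1 to 4. The populations did not overlap at E13, whereas at E17 the higher coronary library reached the lower endocardial one. The coronary minus endocardial log2 fold change was -0.85 ± 0.50 (SE) at E17, which did not pass (edgeR adjusted p = 0.173), and 3.18 ± 0.37 at E13 (edgeR adjusted p = 1.28e-05). Between stages Pdgfra moved in opposite directions, falling in coronary libraries (E17 minus E13 log2 fold change -2.05 ± 0.46, edgeR adjusted p = 0.00267) and rising in endocardial libraries (1.98 ± 0.42, edgeR adjusted p = 0.00354). The endocardial rise was lost without E17 endocardial replicate 1, the higher of the pair (1.5, edgeR adjusted p = 0.0698).

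Tcf21, the transcription factor gene, was near 0 in all endocardial libraries. Its level was 19.7 and 10.4 CPM in E17 coronary libraries, against 0.164 and 0.0648 CPM in E17 endocardial libraries, which together held 4 counts. In the E13 coronary libraries it was 3.19, 6.37, 11 and 7.15 CPM, against 0.113, 0.192, 0.05 and 0.297 CPM, or 13 counts in all, in the E13 endocardial libraries. Every coronary library was thus above every endocardial library of its stage. The coronary excess was 6.91 ± 0.76 on the log2 scale at E17 (edgeR adjusted p = 9.47e-06) and 5.42 ± 0.51 at E13 (edgeR adjusted p = 1.91e-06). As a ratio of pooled counts over unscaled library totals it was 124.9 at E17, with a 95% exact interval from 48.5 to 460.4, and 48.8 at E13, from 28.3 to 92.3. These intervals cover counting error only. Within coronary libraries Tcf21 was higher at E17 than at E13 by 1.11 ± 0.39 (edgeR adjusted p = 0.0321), although the lower E17 library lay within the E13 range. That call was lost without E13 coronary replicate 2 (edgeR adjusted p = 0.0704) or 4 (0.0612), without E17 coronary replicate 1 (0.392) and when only the coronary groups were fitted (0.0745).

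Dcn and Lum, neighbours on chromosome 10, changed sides between the stages. Dcn stood at 77.4 and 37.2 CPM in E17 coronary libraries, against 125.1 and 136.4 CPM in E17 endocardial libraries. In E13 coronary libraries it was 23.0, 37.8, 52.2 and 39.3 CPM, against 3.72, 2.59, 2.55 and 2.91 CPM in E13 endocardial libraries. The endocardial group was therefore the higher at E17 and the coronary group the higher at E13, with no overlap at either stage. Dcn was lower in coronary than in endocardial libraries at E17 (-1.19 ± 0.33, edgeR adjusted p = 0.00865) and higher at E13 (3.67 ± 0.30, edgeR adjusted p = 7.05e-07). The E17 call was lost without E17 coronary replicate 2 (-0.75, edgeR adjusted p = 0.0872), and the value moved to -1.79 without replicate 1.

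Lum, which encodes a keratan sulfate proteoglycan of collagen fibrils, also changed sides. It stood at 28.9 and 15.6 CPM in E17 coronary libraries, against 117.9 and 122.2 CPM in E17 endocardial libraries. At E13 it was 36.6, 113.9, 142.1 and 84.7 CPM in coronary libraries, against 7.10, 5.48, 6.5 and 6.54 CPM in endocardial libraries. The coronary minus endocardial value was -2.44 ± 0.47 at E17 (edgeR adjusted p = 0.000893) and 3.88 ± 0.37 at E13 (edgeR adjusted p = 2.4e-06).

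Both proteoglycan genes were much higher in E17 than in E13 endocardial libraries, which were also sorted by different gates. The E17 minus E13 log2 fold change in endocardial libraries was 5.45 ± 0.33 for Dcn, 43.8-fold (edgeR adjusted p = 5.48e-07), the 23rd highest of the 15171 genes tested. It was 4.22 ± 0.41 for Lum, 18.7-fold (edgeR adjusted p = 1.53e-05), the 38th highest. In coronary libraries Lum fell by 2.10 ± 0.43 (edgeR adjusted p = 0.00159), while Dcn did not pass at 0.58 ± 0.28 (edgeR adjusted p = 0.107). Dcn passed there as higher at E17 without E13 coronary replicate 3 (0.76, edgeR adjusted p = 0.0339) or without E17 coronary replicate 2 (1.02, 0.0147), and lay at -0.04 without E17 coronary replicate 1.

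Ogn, the remaining proteoglycan gene of the 7, kept its coronary excess at both stages. It stood at 39.2 and 16.0 CPM in E17 coronary libraries, against 0.709 and 0.324 CPM in E17 endocardial libraries. At E13 it was 1.84, 2.56, 2.98 and 3.73 CPM in coronary libraries, against 0.226, 0.192, 0.2 and 0.0595 CPM in endocardial libraries. Coronary libraries were higher at both stages, by 5.69 ± 0.53 at E17 (edgeR adjusted p = 2.35e-06) and 3.92 ± 0.45 at E13 (edgeR adjusted p = 1.04e-05). From pooled counts the ratio was 50.6 at E17 (95% exact interval 31.8 to 85.8) and 16.8 at E13 (9.97 to 30.5). Ogn was the member with the largest stage rise in coronary libraries, 3.31 ± 0.34 (edgeR adjusted p = 6.76e-06), and it was 116th highest of all genes tested. The rise was 2.52 without E17 coronary replicate 1 and still passed. In endocardial cells 18 counts in 2 E17 libraries stood against 15 counts in 4 E13 libraries. That is a pooled ratio of 2.89 (95% exact interval 1.38 to 6.16, counting error only). The difference did not pass (1.55 ± 0.67, edgeR adjusted p = 0.103) except with DESeq2 (adjusted p = 0.042) or without either E17 coronary library (edgeR adjusted p = 0.0404 and 0.0413).

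Dpt, the dermatopontin gene, was near 0 in all endocardial libraries. It stood at 59.5 and 26.1 CPM in E17 coronary libraries, against 0.218 and 0.972 CPM in E17 endocardial libraries. At E13 it was 4.71, 11.1, 16.4 and 12.8 CPM in coronary libraries, against 0.188, 0, 0.2 and 0.178 CPM in endocardial libraries. The coronary excess was 6.21 ± 0.73 at E17 (edgeR adjusted p = 1.75e-05) and 6.24 ± 0.62 at E13 (edgeR adjusted p = 3.46e-06). Pooled counts gave ratios of 74.5 at E17 (95% exact interval 47.5 to 124.1) and 86.1 at E13 (49.1 to 167.3). The E17 excess rested on few endocardial counts, 4 and 15, and was 5.45 without E17 endocardial replicate 1 and 7.57 without replicate 2. Coronary Dpt was higher at E17 than at E13 by 1.92 ± 0.43 (edgeR adjusted p = 0.00249), a call lost without E17 coronary replicate 1 (1.21, edgeR adjusted p = 0.0893).

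Postn, the periostin gene, was the most abundant of the 7 per exon kilobase and passed in no comparison. It stood at 1041 and 487.0 CPM in E17 coronary libraries, against 1144 and 1033 CPM in E17 endocardial libraries. At E13 it was 535.1, 1046, 1438 and 1006 CPM in coronary libraries, against 738.2, 617.1, 570.9 and 680.7 CPM in endocardial libraries. Its groups overlapped except between stages in endocardial libraries, where both E17 libraries were above all 4 E13 libraries (0.74 ± 0.32, edgeR adjusted p = 0.098). The coronary minus endocardial value was -0.51 ± 0.38 at E17 (edgeR adjusted p = 0.278) and 0.63 ± 0.27 at E13 (edgeR adjusted p = 0.0592). The E13 value passed without E13 coronary replicate 1, the lowest of the coronary libraries (0.86, edgeR adjusted p = 0.00322), with no filter on low counts (0.025) and when only the E13 groups were fitted (0.0347).

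**Figure D2:**
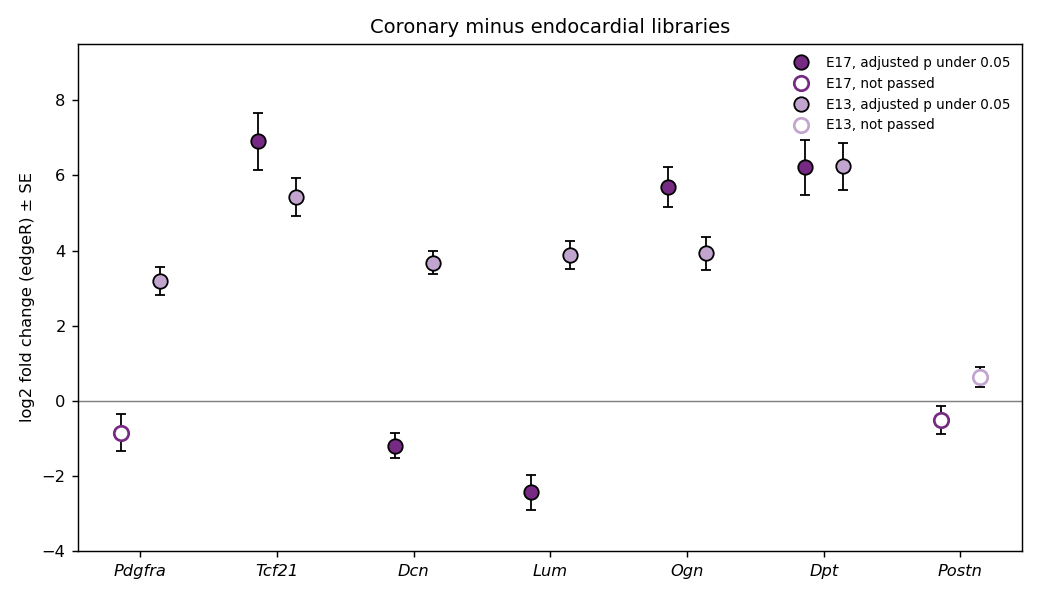
Coronary minus endocardial log2 fold change of each of the 7 genes (vertical, edgeR estimate ± SE) at E17 and at E13, with filled points where the adjusted p was under 0.05. At E13 only Postn did not pass and all 7 values were above 0, whereas at E17 Dcn and Lum lay below 0 and Tcf21, Ogn and Dpt above 5.

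**Figure D3:**
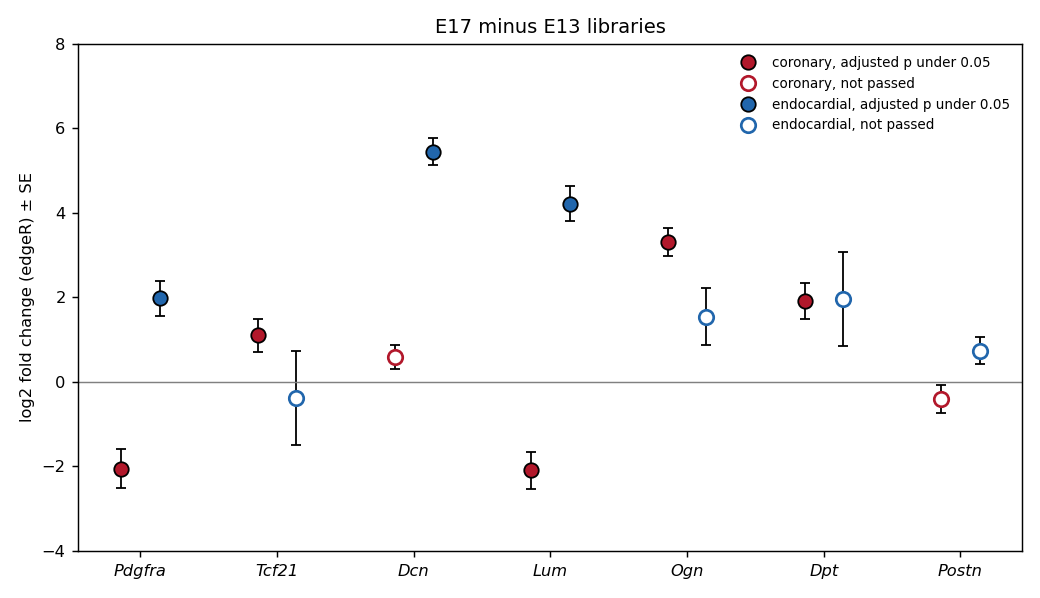
E17 minus E13 log2 fold change of each of the 7 genes (vertical, edgeR estimate ± SE) in coronary and in endocardial libraries, with filled points where the adjusted p was under 0.05. Pdgfra and Lum lie near -2 in coronary libraries and above 1.9 in endocardial libraries.

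The difference between populations itself changed with stage for 3 of the 7, all lower, against 32.7% of tested genes called, 16.2% higher and 16.5% lower. The E17 minus E13 change of the coronary-endocardial difference was -6.32 ± 0.62 for Lum (edgeR adjusted p = 1.27e-05), -4.87 ± 0.46 for Dcn (edgeR adjusted p = 9.87e-06) and -4.03 ± 0.63 for Pdgfra (edgeR adjusted p = 0.000406). It did not pass for Ogn (1.77 ± 0.80, edgeR adjusted p = 0.114), Tcf21 (1.49 ± 1.18), Postn (-1.14 ± 0.46) or Dpt (-0.03). With the batch of the labels as a replicate block, Ogn passed as well (1.86, edgeR adjusted p = 0.0375). Postn passed without E13 coronary replicate 1 (edgeR adjusted p = 0.00831), without E17 coronary replicate 1 (0.016) and with no filter on low counts (0.0373).

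Among the coronary libraries the genes moved together. In the E17 pair all 7 were higher in replicate 1 than in replicate 2, by 1.85-fold (Lum), 1.88-fold (Pdgfra), 1.90-fold (Tcf21), 2.08-fold (Dcn), 2.14-fold (Postn), 2.28-fold (Dpt) and 2.45-fold (Ogn). Of 9249 tested genes at 10 CPM or more in this pair, 1.81% were at least 1.5-fold higher in replicate 1, and the median ratio was 0.985. All 12 endothelial genes were lower in replicate 1 (median ratio 0.904), and Pecam1 stood at 1800 and 2141 CPM. At E13 all 7 were lowest in replicate 1. 6 of them were highest in replicate 3, where the ratio over replicate 1 ran from 2.27 (Dcn) to 3.88 (Lum), and Ogn was highest in replicate 4. At least 2-fold higher in replicate 3 than in replicate 1 were 2.60% of 9378 tested genes at 10 CPM or more. The 12 endothelial genes again went the other way, with none higher in replicate 3 and a median ratio of 0.705.

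**Figure D4:**
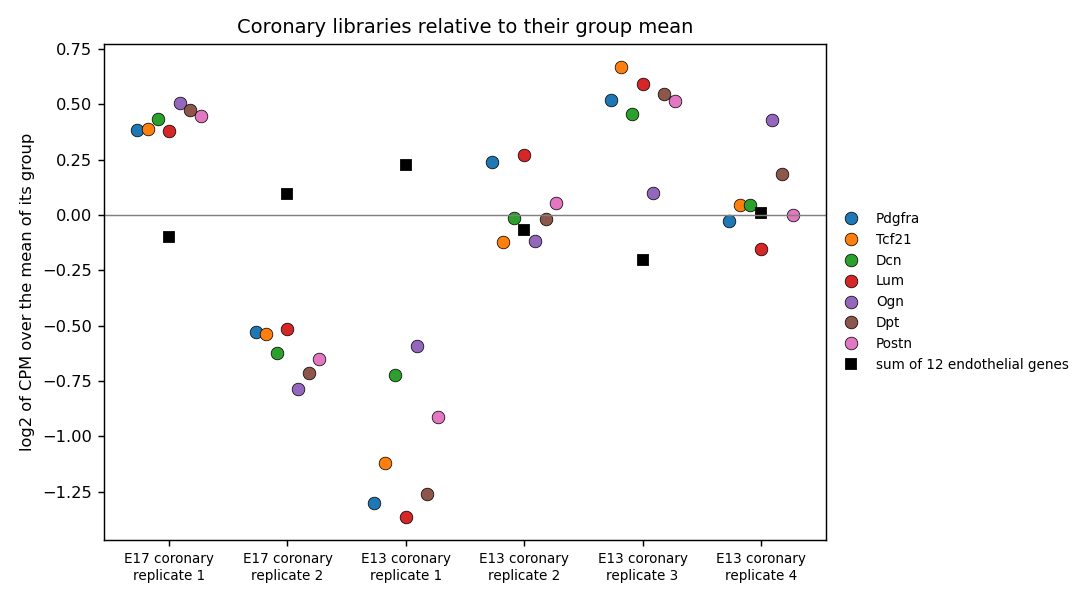
Level of each of the 7 genes and the summed level of 12 endothelial genes in the 6 coronary libraries, as log2 of CPM over the mean of the same group (vertical), with 1 point per gene and library. All 7 genes lie above their mean in E17 replicate 1 and below it in E13 replicate 1, where the endothelial sum lies on the other side.

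Other genes shared this spread between libraries in part. In E13 coronary replicate 3 over replicate 1 the median ratio was 2.07 over 18 other fibroblast and matrix genes at 10 CPM or more, 3.57 over 8 mural genes and 2.15 over 11 valve and mesenchymal transition genes, of which 16, 6 and 11 were higher in replicate 3. In E17 coronary replicate 1 over replicate 2 it was 1.61, 1.87 and 1.25 over 18, 7 and 8 genes of these lists, with 15, 7 and 7 higher. Epicardial genes at this level had a median ratio of 2.81 in the E13 comparison, with 1 of 2 higher in replicate 3, and of 1.79 in the E17 comparison, with 3 of 4 higher in replicate 1. The summed epicardial level, most of it Wt1, was 161.3 and 168.0 CPM in the E17 pair and 103.3, 91.5, 92.7 and 91.3 CPM in E13 replicates 1 to 4. Both neural crest and glial genes at this level were higher in E13 replicate 3 (median ratio 3.8). All 4 erythroid genes at this level were higher in E13 replicate 3 (median ratio 2.43) and in E17 replicate 1 (1.46). Of cardiomyocyte genes, 7 of 8 were higher in E13 replicate 3 (median ratio 1.11) and 7 of 7 in E17 replicate 1 (1.36). Over E13 coronary replicates 1 to 4 the erythroid list summed to 209.8, 38.85, 534.1 and 563.0 CPM. The cardiomyocyte list summed to 356.8, 188.3, 381.1 and 319.9 CPM. Both were lowest in replicate 2, where the 7 fibroblast genes summed to 1394 CPM, against 665.4 CPM in replicate 1. Most of each sum was Postn, at 1046 and 535.1 CPM. Whether other cells took part in this spread was not tested. Of genes of platelet-derived growth factor ligands and other receptors, 1 of 4 was higher in E13 replicate 3 (median ratio 0.752) and 1 of 3 in E17 replicate 1 (0.83). The 2 E17 endocardial libraries lay close for Dcn and Lum (ratios 0.917 and 0.965 of replicate 1 over replicate 2) but not for Pdgfra (1.78), and 0.599% of 9345 tested genes at that level were at least 1.5-fold higher in replicate 1.

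Ratios between the genes were also taken within each library. Per exon kilobase, Lum over Pdgfra was 2.50 and 2.53 in E17 coronary libraries and between 2.36 and 2.71 in the 4 E13 coronary libraries, while Pdgfra itself ran from 25.2 to 214.7 CPM across these 6. The same ratio was 5.83 and 10.7 in E17 endocardial libraries and 1.2 to 2.13 in E13 endocardial libraries. Tcf21 over Pdgfra was 1.77 and 1.76 in E17 coronary, 0.00843 and 0.00593 in E17 endocardial, 0.154 to 0.224 in E13 coronary and 0.016 to 0.101 in E13 endocardial libraries. Dpt over Pdgfra was 7.31 and 6.02 in E17 coronary, 0.0153 and 0.121 in E17 endocardial, 0.366 to 0.507 in E13 coronary and at most 0.0871 in E13 endocardial libraries. The coronary ranges of the 2 stages did not meet for Tcf21, Dpt or Dcn over Pdgfra, and they did for Lum. Dcn over Pdgfra was 2.81 and 2.54 in E17 coronary and 2.59 and 5.02 in E17 endocardial libraries, against 0.367 to 0.65 in E13 coronary and 0.238 to 0.399 in E13 endocardial libraries.

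**Figure D5:**
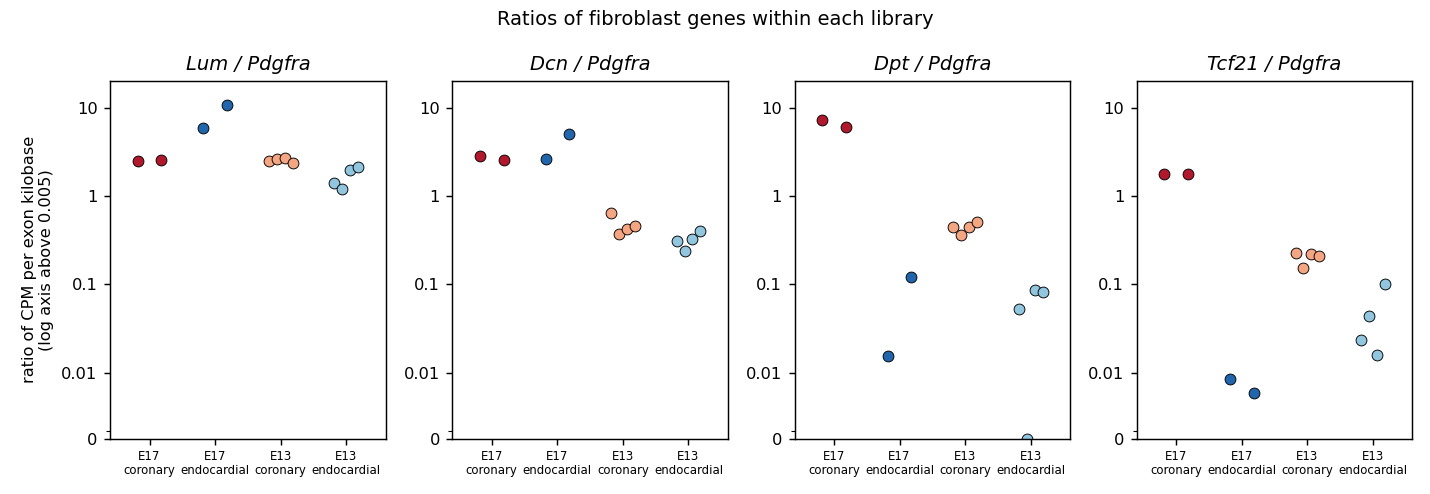
Ratio of Lum, Dcn, Dpt and Tcf21 to Pdgfra within each library, as CPM per exon kilobase on an axis that is logarithmic above 0.005 (vertical) by group (horizontal), with 1 point per library. Lum over Pdgfra keeps within 2.36 to 2.71 in all 6 coronary libraries, and Tcf21 over Pdgfra is above 1.7 in E17 coronary and below 0.01 in E17 endocardial libraries.

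Per exon kilobase, Postn was the highest of the 7 in all 12 libraries. Dpt came next in both E17 coronary libraries (34.5 and 15.1 CPM per kilobase), and Pdgfra was the lowest there (4.72 and 2.51). Ogn, Dcn and Lum lay close together, between 11.8 and 15.3 CPM per kilobase in replicate 1 and between 6.23 and 6.37 in replicate 2, so their order is not resolved. In E17 endocardial libraries Lum came second (48.2 and 49.9 CPM per kilobase), followed by Dcn (21.4 and 23.4) and Pdgfra (8.27 and 4.66), and Ogn, Dpt and Tcf21 were all below 0.6. In E13 libraries of both populations Lum was second and Pdgfra came next in every library. Ogn was the lowest in all E13 coronary libraries (0.717 to 1.46 CPM per kilobase), below Tcf21 (1.36 to 4.70).

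Of 20 other fibroblast and mesenchymal matrix genes, 8 were higher and 7 lower in coronary than in endocardial libraries at E17. Over all tested genes 26.5% were higher and 26.1% lower there. At E13, 14 of the 20 were higher and 2 lower, against 30.1% and 29.9% of all tested genes. The median log2 fold change of the 20 was 0.79 at E17 and 1.42 at E13. The hexameric matrix protein gene Tnc averaged 183.4 ± 9.74 CPM in E17 coronary and 37.3 ± 7.59 CPM in E17 endocardial libraries (SD, n = 2 each), and 297.7 ± 49.0 CPM in E13 coronary and 6.14 ± 1.33 CPM in E13 endocardial libraries (SD, n = 4 each). Pi16 turned round as Dcn and Lum did, at -0.58 ± 0.21 at E17 (edgeR adjusted p = 0.0375) and 3.73 ± 0.16 at E13 (edgeR adjusted p = 5.2e-09). The fibulin gene Fbln1 was higher at both stages (1.21 ± 0.23 and 2.39 ± 0.16), and the collagen VI chain gene Col6a1 passed at E13 but not at E17 (0.61 ± 0.33 at E17, 3.27 ± 0.27 at E13). Mfap5 and Thy1 were the 2 genes lower at E13, and Col6a3, Mfap2, Clec3b and Fstl1 did not pass. Fstl1, the most abundant of these 4, was lower in coronary libraries at E17 (-1.18 ± 0.12) and lay at -0.07 ± 0.09 at E13. With stage, 2 of the 20 were higher and 12 lower in coronary libraries, against 24.6% and 25.6% of all tested genes. In endocardial libraries 10 of the 20 were higher and 2 lower, against 16.2% and 15.6%.

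Of 13 further genes of the small leucine-rich proteoglycan family, 8 were tested. In coronary against endocardial libraries 2 of them were higher and 3 lower at E17, where 26.5% of all tested genes were higher and 26.1% lower, and 3 were higher and 3 lower at E13, where 30.1% were higher and 29.9% lower. Their median log2 fold change was -0.39 at E17 and 0.24 at E13. Aspn was 37.9 ± 17.46 CPM in E17 coronary and 0.478 ± 0.058 CPM in E17 endocardial libraries (SD, n = 2 each). Its coronary excess was 6.30 ± 0.58 at E17 and 5.06 ± 0.47 at E13. In coronary libraries Aspn was higher at E17 than at E13 by 2.63 ± 0.34, as Ogn was. Fmod was higher in coronary libraries at both stages (2.71 ± 0.75 and 5.60 ± 0.49) but fell with stage there by 2.62 ± 0.52. Prelp passed at E13 and not at E17 (-0.01 ± 0.51 at E17, 3.28 ± 0.43 at E13). Bgn, the gene of biglycan, a close relative of decorin, was lower in coronary libraries at both stages (-2.59 ± 0.27 and -0.53 ± 0.18), as were Tsku and Ecm2. Kera, the neighbour of Lum, had no count in any library of 3 groups and 0.0259 CPM on average in E13 coronary libraries.

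Of 6 genes of platelet-derived growth factor ligands and other receptors, 2 were higher and 1 lower in coronary libraries at E17. These counts lay near the share over all tested genes, 26.5% higher and 26.1% lower. At E13, 5 of the 6 were higher and none lower, against 30.1% and 29.9% of all tested genes. Pdgfa, whose product binds the Pdgfra receptor, averaged 2.15 ± 0.75 CPM in E17 coronary and 3.74 ± 0.43 CPM in E17 endocardial libraries, and 4.26 ± 1.07 CPM in E13 coronary and 2.54 ± 0.38 CPM in E13 endocardial libraries (SD, n = 2 and n = 4 per group). Pdgfc, a further ligand gene, turned round with stage, being lower in coronary libraries at E17 (-4.11 ± 0.68, edgeR adjusted p = 0.000287) and higher at E13 (2.51 ± 0.36, edgeR adjusted p = 7.5e-05). The ligand genes Pdgfb and Pdgfd were higher in coronary libraries at E17 (3.19 ± 0.25 and 1.71 ± 0.25) and at E13 (3.28 ± 0.18 and 0.85 ± 0.19). Pdgfrb, the gene of the beta receptor and a marker of mural cells as well as fibroblasts, did not pass at either stage (-0.09 ± 0.39 at E17, -0.47 ± 0.27 at E13), nor with stage in either population.

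Markers of other cell types moved with the fibroblast genes in part. The summed level of 12 mural genes ran from 794.9 to 1009 CPM in E17 coronary, 72.4 to 84.5 CPM in E17 endocardial, 345.3 to 628.2 CPM in E13 coronary and 109.2 to 122.8 CPM in E13 endocardial libraries, where Vtn had no count. Most of the E17 coronary sum was Abcc9, which averaged 527.3 CPM there. Of the 12, 11 were higher in coronary libraries at E17 and 7 at E13, and none was lower. For this list and those that follow, the shares over all tested genes were 26.5% higher and 26.1% lower at E17. At E13 they were 30.1% and 29.9%. The pericyte channel genes Kcnj8 and Abcc9 were higher by 5.12 ± 0.26 and 3.78 ± 0.26 at E17 and by 4.65 ± 0.19 and 2.24 ± 0.17 at E13. The 10 epicardial genes summed to between 161.3 and 168.0 CPM in E17 coronary, 16.97 and 17.9 CPM in E17 endocardial, 91.3 and 103.3 CPM in E13 coronary and 18.4 and 23.2 CPM in E13 endocardial libraries. Of the 9 tested, 5 were higher at E17 with none lower, and 7 were higher at E13 with 1, Lrrn4, lower. Wt1 led their level at 118.5 ± 22.3 CPM in E17 coronary and 9.79 ± 2.20 CPM in E17 endocardial libraries (SD, n = 2 each), though endothelium of growing coronary vessels also expresses it. Neural crest and glial genes, 6 in all, summed to between 5.15 and 8.64 CPM in E17 coronary, 2.46 and 3.77 CPM in E17 endocardial, 14.9 and 48.1 CPM in E13 coronary and 3.12 and 4.05 CPM in E13 endocardial libraries, and Sox10, a defining factor of glia, had no count in E17 endocardial libraries. Of the 5 tested, 2 were higher and 1 lower in coronary libraries at E17, and 4 were higher and 1 lower at E13. The E13 excess was 5.84 ± 0.45 for the neuronal tubulin gene Tubb3, 5.78 ± 0.42 for the neuregulin receptor gene Erbb3, 4.29 ± 0.76 for S100b and 1.21 ± 0.47 for Fabp7. As for most of the 7 fibroblast genes, the sum was lowest in E13 coronary replicate 1 and highest in replicate 3. The 7 erythroid genes summed to between 393.4 and 533.9 CPM in E17 coronary, 79.9 and 472.4 CPM in E17 endocardial, 38.9 and 563.0 CPM in E13 coronary and 18.4 and 366.4 CPM in E13 endocardial libraries, and none of the 6 tested passed between populations at either stage in edgeR, nor was any at an unadjusted p under 0.05. Of 14 cardiomyocyte genes, none was higher in coronary libraries at either stage. The 8 leukocyte genes summed to at most 5.08 CPM in E17 coronary, 23.6 CPM in E17 endocardial, 14.5 CPM in E13 coronary and 11.7 CPM in E13 endocardial libraries. Of the 6 tested, 2 (Csf1r, Cd68) were lower in coronary libraries at E17 and none higher. At E13, 2 (Csf1r, Coro1a) were higher and none lower. Ptprc, which encodes the CD45 that the sort removed, had no count in E17 coronary libraries and 12 in E17 endocardial libraries. Of the 12 endothelial genes, 7 were higher and 4 lower in coronary libraries at E17, and 2 were higher and 8 lower at E13. The part of other cell types in the levels of the 7 genes was not tested.

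Over the 12 libraries, the genes most like the mean of the 7 standardised log2 CPM profiles were Col1a2 (Pearson r = 0.986), Itih5 (0.983), Thbs2 (0.976), Dsel (0.963), Fhl1 (0.959), Ddr2 (0.959), Ccn1 (0.958) and Sema5a (0.953), among 9841 genes with at least 10 CPM in the mean of a group. These values describe likeness over 12 libraries that fall into 4 groups and share their depth scaling. Col1a2, a chain of collagen I, averaged 538.8 ± 297.0 CPM in E17 coronary and 401.4 ± 5.90 CPM in E17 endocardial libraries (SD, n = 2 each), and 525.3 ± 231.9 CPM in E13 coronary and 110.7 ± 4.65 CPM in E13 endocardial libraries (SD, n = 4 each). Ddr2, a collagen receptor of fibroblasts, was higher in coronary libraries by 2.51 ± 0.63 at E17 and 4.26 ± 0.53 at E13. All 8 passed as higher in coronary libraries at E13. At E17 Itih5, Thbs2, Ddr2 and Sema5a passed as higher and the other 4 did not pass. Because the 8 were picked for likeness to the 7 over these same libraries, such calls follow from the choice. They are no separate result.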

How the data were processed

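Polyadenylated RNA of sorted cells was sequenced as single reads from NEBNext Ultra libraries, per the labels' protocols. The deposited values are expected counts per Ensembl gene, made with CASAVA 1.8.2, cutadapt 1.3 and RSEM 1.2.3 on build GRCm38, per the submitters' processing notes, without settings. Reads that fit several genes are shared out by an RSEM estimate, and 18.3% of values are not whole. Counts were rounded, and genes kept by filterByExpr (minimum count 10, total 15), which left 15171. Testing used the quasi-likelihood functions of edgeR 4.0.16 (R 4.3.3) after TMM scaling, in 1 fit of 4 group means over 12 libraries (8 residual degrees of freedom) and Benjamini-Hochberg adjustment over all genes tested, with a threshold of 0.05. Each SE was computed as |log2 fold change| divided by √F, and can mislead for genes with few counts or values near 0. Comparisons were coronary minus endocardial, E17 minus E13, and the change of the first with the second. They share libraries.

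The members and lists were chosen with earlier results of these data known. Named genes are the 7, up to 4 per list with the smallest E13 adjusted p and the most abundant that did not pass, all of a count of 5 or fewer, the proteoglycan and PDGF lists, and the 8 most alike. Exon lengths and coordinates are from GENCODE M21. Alternatives were DESeq2's size factors, DESeq2 1.42.0, no filter, only the groups compared, each library left out, and a batch block. The test was checked on simulated counts. Replicates differed by more than counting noise (chi-square per gene 4.39 to 39.3). The labels give each endocardial and coronary pair of a stage a shared batch, and deviations from group means correlated across 9481 genes at 0.367 to 0.682 within the E13 batches and -0.508 to 0.439 between them.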

Additional observations from a re-analysis of the deposited data

Results flagged for a closer look

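The coronary-endocardial difference of 3 genes changed with stage in edgeR's interaction test. The E17 minus E13 change was -6.32 for Lum (log2 fold change -2.44 at E17, 3.88 at E13), -4.87 for Dcn (-1.19 and 3.67) and -4.03 for Pdgfra (-0.85 and 3.18). For Lum and Dcn both stage values passed the test in opposite directions, and for Pdgfra the E17 value did not pass. Gate, genotype, tamoxifen and batch differ with stage and cannot be told apart from it here.

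Dpt had 0 CPM in E13 endocardial replicate 2, and the other 3 libraries of the group lay between 0.178 and 0.2 CPM, so that the gap to the nearest was 0.892 of the group's range. Those libraries held 3 to 5 counts, and chance marks about 1 in 20 groups of this size.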

How the results depend on the processing

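The number of the 7 genes called stayed within 1.5 times of its main value in all 5 comparisons under every alternative run. Of 571 single-gene values under alternatives, 535 kept direction and side of the threshold, 20 newly passed, 7 no longer passed and 9 changed sign, and the cause was not tested. The sign changes were all of values that had not passed: the stage change of the Dpt difference (0.0047 with the replicate block, and -0.80 to 1.33 over the libraries left out in turn, above 0 without E13 endocardial replicate 2, E13 coronary replicate 3 or 4, E17 endocardial replicate 2 or E17 coronary replicate 2), and, over the same, Dcn with stage in coronary libraries (-0.037 to 1.02, below 0 without E17 coronary replicate 1), Postn there (-1.05 to 0.0498, above 0 without E17 coronary replicate 2) and Tcf21 with stage in endocardial libraries (-1.18 to 0.0688, above 0 without E17 endocardial replicate 2). The block could not be fitted for the stage comparisons, since each batch holds 1 stage, and elsewhere changed no call of the 7 but that of Ogn. Newly passing values not given above were Pdgfra at E17 without E13 coronary replicate 1 (edgeR adjusted p = 0.0478), Postn at E17 (0.0417) and with stage in coronary libraries (0.0482) without E17 coronary replicate 1, Postn at E13 without E17 coronary replicate 1 or 2 (0.0276 and 0.0317), Postn with stage in endocardial libraries when only those were fitted (0.000207) or without E13 coronary replicate 1 (0.0248), and the Ogn interaction without E17 coronary replicate 2 (0.0258). Leaving out 1 library moved further called values by over 1.5 times: Ogn at E17 (6.38 without E17 endocardial and 4.93 without E17 coronary replicate 1), Dpt at E17 (5.51 without E17 coronary replicate 1), Tcf21 at E17 (7.72 without E17 endocardial replicate 1) and the Dcn interaction (-5.49 without E17 coronary replicate 1). With 2 libraries per group at E17, the spread there rests on that of all groups.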

Other observations

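Of 13 genes of valves and of mesenchymal transition, 6 were higher and 4 lower in coronary than in endocardial libraries at E17. Over all tested genes 26.5% were higher and 26.1% lower there. At E13, 10 of the 13 were higher and 2 lower, against 30.1% and 29.9% of all tested genes. With stage, none of the 13 was higher and 7 were lower in coronary libraries, against 24.6% and 25.6%. The median stage log2 fold change of the 13 there was -2.51. Has2, which encodes a hyaluronan synthase, stood at 4.56 ± 2.38 CPM in E17 coronary and 0.87 ± 0.31 CPM in E17 endocardial libraries (SD, n = 2 each), and at 51.5 ± 17.7 CPM in E13 coronary and 0.744 ± 0.204 CPM in E13 endocardial libraries (SD, n = 4 each). The proteoglycan gene Vcan turned round between stages as Lum did, at -2.13 ± 0.28 at E17 and 2.98 ± 0.20 at E13.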
